A study of Caenorhabditis elegans with 4 samples.

Results

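Chromosome V carried 422 of the 2964 COH-1 peaks of replicate 1 and 392 of the 2302 peaks of replicate 2. The members are all rows that the authors' peak lists place on V, in WormBase build WS220, and the lists were kept apart. A peak counted as shared where 1 bp or more of it lay in a peak of the other list, and overlapping peaks joined into 184 shared intervals on V, of 1189 on all 6 nuclear chromosomes. Both lists come from chromatin immunoprecipitation followed by sequencing (ChIP-seq) with a polyclonal antibody to COH-1 raised in rabbit, in adult Caenorhabditis elegans hermaphrodites that carry the b245 allele of fem-2, on chromosome III, and were kept at 20 °C. The stage label says young adults with a germline, while the growth protocol describes gravid adults. The study has 2 ChIP libraries and 2 libraries of input DNA, all of this genotype. No wild-type library and no value of the input libraries was analysed here, so ChIP peaks are given without the level of the input. The list of replicate 2 was deposited under a name that contains the tag csr1, which the labels do not explain. The labels do not say whether the ChIP libraries stem from separate cultures, and differences between them may be technical.

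COH-1 belongs to the kleisins, which close the ring of the cohesin complex. Cohesin holds sister chromatids together and, in interphase, folds chromosomes by extruding loops of DNA. The worm has further kleisins that act mainly in meiosis, such as REC-8. The autosomes of C. elegans have a gene-dense centre with little meiotic recombination, flanked by arms that recombine more, hold more repeats and carry more methylation of histone H3 lysine 9. Chromosome V is also known for its large families of chemoreceptor genes, many of them in the arms. No annotation or sequence of build WS220 was used here, and genes at the sites are therefore not named.

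COH-1 peaks were sparser on V than on the other 4 autosomes. V had 20.3 peaks per Mb in replicate 1 and 18.8 in replicate 2, against 28.4 and 23.4 per Mb on I to IV. The mean was 19.6 ± 1.02 per Mb on V and 25.9 ± 3.54 on I to IV (SD, n = 2 lists each). The ratio of V over I to IV was 0.71 in replicate 1 (exact 95% interval 0.64 to 0.79; exact binomial test, two-sided, adjusted p = 5.16e-10) and 0.81 in replicate 2 (0.72 to 0.90; adjusted exact binomial p = 0.00012). For shared intervals the densities were 8.85 per Mb on V and 12.1 per Mb on I to IV, a ratio of 0.73 (0.62 to 0.86; adjusted exact binomial p = 0.00012). The adjustment is Benjamini-Hochberg over the 3 sets, here and for the tests of the central share. These tests and those that follow count each peak as independent, although neighbours lay close together, so their p-values are too small.

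Over the whole of V, the median width and score of peaks differed little from those of I to IV. By zone, as defined below, both medians were lower in the centre of V than in the centres of I to IV. In the arms of V both were higher than in the arms of I to IV. These differences were not tested. Median widths on V were 1460 and 1578 bp in replicates 1 and 2, against 1610 and 1625 bp on I to IV. Peaks of V spanned 864 to 33294 bp in replicate 1 and 731 to 28515 bp in replicate 2. They covered 1226 kb of V in replicate 1 and 1022 kb in replicate 2, which is 58.96 and 49.2 kb per Mb. On I to IV the peaks covered more, 77.7 and 61.2 kb per Mb. Peaks of 5 kb or more numbered 57 and 43, or 13.5% and 11.0% of the peaks of V, against 11.9% and 11.7% on I to IV. The authors' score, whose scale the files do not name, had a median of 116.4 on V in replicate 1 and 267.4 in replicate 2, against 119.1 and 267.9 on I to IV. Scores ran to higher values in replicate 2, where 26 peaks of V reached 3100 or more and none of replicate 1 did, so scores are compared within a list only.

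The lists named the same places on V about as often as elsewhere. Of the V peaks of replicate 1, 218 of 422 overlapped replicate 2, or 51.7% (exact 95% interval 46.8% to 56.5%), where 48.2% of the whole list did. Of the V peaks of replicate 2, 266 of 392 overlapped replicate 1, or 67.9% (63.0% to 72.5%), where 70.2% of the whole list did. Every one of the strongest members overlapped the other list. V held 49 of the strongest 10% of peaks of replicate 1 and 46 of those of replicate 2 by score, and 49 of 49 and 46 of 46 overlapped the other list. This share was near that of strong peaks in general, since 93.9% of the strongest 10% of replicate 1 and 96.5% of those of replicate 2 overlapped over the whole lists. On I to IV it was 163 of 174 and 145 of 151. Intervals cover counting error only, and the depth of reads behind a peak is unknown.

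Peaks that were in both lists were wider and scored higher than those in a single list. In replicate 1 the shared peaks of V had a median score of 230.8 and a median width of 2618 bp, and the 204 without a partner had 83.5 and 1184.5 bp. In replicate 2 the shared peaks had 405.4 and 1975 bp, and the 126 without a partner had 140.3 and 1192 bp. A wide peak meets another list more easily, so width and overlap are not independent measures. Many unpaired peaks lay near one of the other list, 85 of 204 within 5 kb in replicate 1 and 67 of 126 in replicate 2.

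Within V the peaks were crowded into the centre, taken as the middle 33.3% of its length. The length was counted up to the end of the outermost peak on the right, at 20796808. The left arm thus ends at 6932269, the right arm starts at 13864539, and each is 6.93 Mb long. In replicate 1 the centre held 247 of 422 peaks, 58.5% (exact 95% interval 53.7% to 63.3%), and in replicate 2 it held 226 of 392, 57.7% (52.6% to 62.6%). The mean central share was 58.1% ± 0.62 (SD, n = 2), so the lists differed by less than their counting error. Of the shared intervals, 103 of 184 had their midpoint in the centre. In density, the centre had 35.6 peaks per Mb in replicate 1 and the arms 12.6, a ratio of 2.82. In replicate 2 the centre had 32.6 per Mb and the arms 11.97, a ratio of 2.72. For shared intervals these densities were 14.9 and 5.84 per Mb, a ratio of 2.54. Each set departed from even placement (exact binomial tests, two-sided, adjusted p = 1.12e-25 in replicate 1, 1.46e-22 in replicate 2 and 3.22e-10 for shared intervals). These p-values are no independent support, since V, its zones and the tests were chosen with earlier results of these data known.

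**Figure D1:**
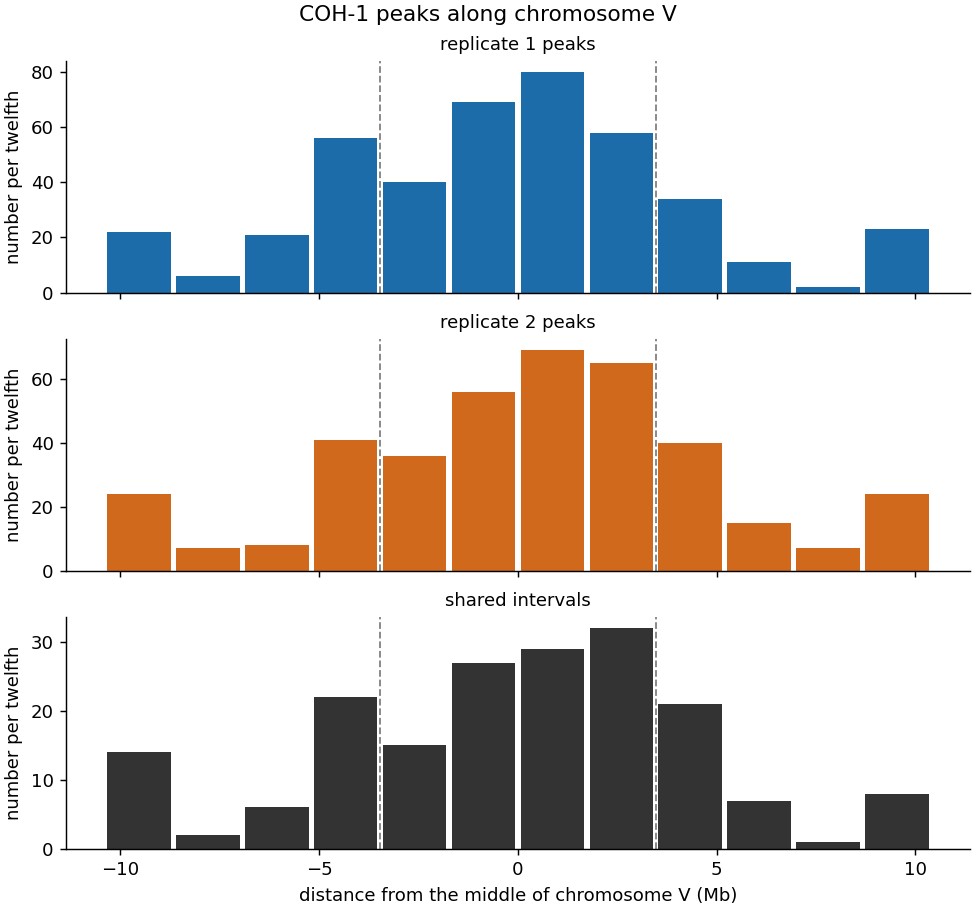
Number of COH-1 peaks of replicate 1 (top), peaks of replicate 2 (middle) and shared intervals (bottom) in 12 equal parts of chromosome V, by distance from its middle in Mb. Dashed lines bound the centre. Counts are high in the centre, lowest in the part next to each end (6 and 2 peaks of replicate 1, 7 and 7 of replicate 2), and higher again in the outermost parts.

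The peaks of the arms were not spread evenly along them. Cutting V into 12 equal parts of 1.73 Mb, from the left end, gave 14, 2, 6, 22, 15, 27, 29, 32, 21, 7, 1 and 8 shared intervals. The counts therefore fell away on both sides of the centre, reached their lowest values in the part next to each end, and were higher again at the ends. Replicate 1 had 22 and 23 peaks in the outermost parts at the left and right end, against 6 and 2 in the parts next to them. Replicate 2 had 24 and 24, against 7 and 7. On I to IV summed, the outermost parts held 28 and 45 shared intervals and the parts next to them 29 and 50. Among I to IV, only the left end of II had a similarly bare neighbour, with 6 shared intervals in the outermost part and 0 in the next. The difference between V and I to IV at the ends was seen after the counts were known and was not tested.

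When each arm was cut into 3 equal parts of 2.31 Mb, most of its shared intervals lay beside the centre. In the left arm, 24 of 44 shared intervals were in the part beside the centre, 4 in the middle part and 16 in the outer part. In the right arm the counts were 22, 7 and 8 of 37. The counts therefore depend on where the border is drawn. On the left, the 12 equal parts inward from the arm held 6, 22 and 15 shared intervals, so the low counts began within the arm and not at its border. With the middle 50% of the length as the centre, 79.3% of shared intervals fell inside.

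In 1 Mb bins the most shared intervals lay from 13000001 to 14000000, with 22 shared intervals, 42 peaks of replicate 1 and 44 of replicate 2. The bins from 10000001 to 11000000, with 21 shared intervals, and from 11000001 to 12000000, with 17, came next. The bins from 3000001 to 4000000 and from 18000001 to 19000000 held 0 shared intervals. The first of these had 4 peaks of replicate 1 and 0 of replicate 2, and the second had 0 of replicate 1 and 3 of replicate 2. The bin from 17000001 to 18000000 had 1 shared interval. Low values were not confined to the arms, since the bin from 7000001 to 8000000, in the centre, had 5 shared intervals between neighbours with 15 each.

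Large stretches of the arms had no COH-1 peak at all. The longest 3 such stretches, empty in both lists, ran from 2730087 to 3579099 in the left arm (849 kb), from 18580016 to 19364554 in the right arm (784.5 kb) and from 17026676 to 17718560 in the right arm (691.9 kb). Of the stretches of 300 kb or more, 6 lay in the left arm, 7 in the right arm and 1 in the centre, from 7097996 to 7430013. Stretches of 100 kb or more made up 2010 kb of the centre, 5423 kb of the left arm and 5439 kb of the right arm. No shared interval lay from 2140666 to 4489297, over 2349 kb, where replicate 1 had 5 peaks and replicate 2 had 1. In the right arm a single shared interval, from 17721382 to 17722457, stood between 16596801 and 19517632. It scored 54.3 in replicate 1 and 65.4 in replicate 2, close to the lowest scores of both lists on V (50.2 and 50.7).

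The arms held fewer peaks than the centre, but a larger part of them scored high. Of the V peaks of replicate 1, 20 of 247 in the centre were among the strongest 10% of the whole list, or 8.10% (exact 95% interval 5.02% to 12.2%), and 29 of 175 in the arms, or 16.6% (11.4% to 22.9%). In replicate 2 the shares were 23 of 226 in the centre, 10.2% (6.56% to 14.9%), and 23 of 166 in the arms, 13.9% (8.99% to 20.1%). On I to IV the centre had 10.2% and the arms 9.73% in replicate 1, and 9.50% and 11.3% in replicate 2. The median score was 111.1 in the centre of V and 125.1 in its arms in replicate 1, and 228.0 and 310.3 in replicate 2. The intervals of centre and arms overlapped in both lists, and no test was made of this difference. Median widths of centre and arms were close, 1445 bp in the centre and 1469 bp in the arms in replicate 1, and 1514 and 1603.5 bp in replicate 2. On I to IV the centre had the wider peaks, with 1834 bp in the centre and 1382 bp in the arms in replicate 1, and 1739 and 1516 bp in replicate 2.

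**Figure D2:**
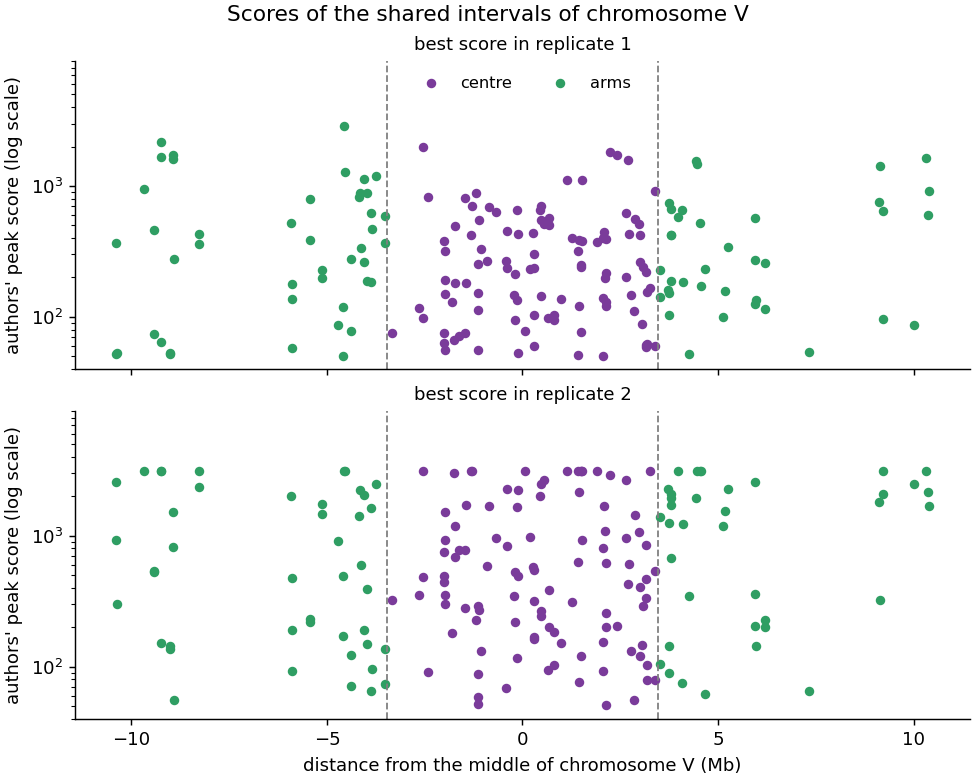
Best score of each of the 184 shared intervals of chromosome V in replicate 1 (top) and replicate 2 (bottom), on a log scale, by distance from the middle of V in Mb. Each point is an interval, purple in the centre and green in the arms. Dashed lines bound the centre. High scores occur in the centre and in both arms, but not in the long stretches of the arms that lack shared intervals. Of the 23 intervals at 3100 or more in replicate 2, 12 lie in the arms (13.9 Mb) and 11 in the centre (6.93 Mb). Over all 184 intervals it is 81 and 103.

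With the middle 33.3% as the centre, more of the best-scoring shared intervals of V lay in its arms than in its centre. Ranked by the mean of their ranks among the V peaks of both lists, 4 of the best 10 lay in the centre and 6 in the arms. Of the best 20, 6 lay in the centre and 14 in the arms, while over all 184 it was 103 and 81. The arms make up 13.9 Mb and the centre 6.93 Mb, so these counts are not densities. They depend on the border: the arm intervals from 5836307, 5847584 and 14844403 among the best 10 lie within the middle 50% of the length. Neighbours also count singly. The intervals from 5836307 and 5847584 join into a single site at 10 kb, as do those from 1145943 and 1153064. The best 10 had widths of 6.43 to 17.9 kb (median 11.4 kb). Since most tied at 3100 in replicate 2, their order follows replicate 1. Over the 184 shared intervals the scores of the lists had Spearman's rho = 0.46, with 0.42 over the 103 of the centre and 0.50 over the 81 of the arms. These values describe intervals, which are not replicates, and wide intervals can hold several peaks. Over the 120 intervals with a single peak of each list rho was 0.28.

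The top interval of V stood in the left arm, from 5836307 to 5847550. Its best scores were 2879 in replicate 1, the highest of that list on V, and 3100 in replicate 2. Replicate 2 called it as 1 peak of 11244 bp, and replicate 1 as a peak of 7363 bp beside a weaker one of 2672 bp. Directly beyond it, another interval among the best 10 ran from 5847584 to 5855725, with scores of 1284 and 3100. These neighbours thus formed an almost unbroken stretch.

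Further out in the left arm, a pair of strong intervals stood from 1145943 to 1152368 (scores 1664 and 3100) and from 1153064 to 1161664 (2163 and 3100). Together with a weak interval from 1144316 to 1145640 they made a site of 17.3 kb. The fifth of the best intervals of this arm lay from 721248 to 737666, with scores of 940.1 and 3100. It was a single peak of 12420 bp in replicate 1 and 3 peaks in replicate 2, and no peak of either list lay within 233.9 kb on its right or 339.2 kb on its left. Strong COH-1 intervals were thus present beside long empty stretches.

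In the right arm the best interval ran from 20707518 to 20719084, with scores of 1638 and 3100. Its midpoint lay 83.5 kb from the end of the last peak on the right. The next, from 14844403 to 14856323, scored 1462 and 3100, and a neighbour from 14827043 to 14840030 scored 1564 and 1946. The interval from 19621838 to 19625832 scored 643.9 and 3100, and that from 14361857 to 14371522 scored 576.2 and 3100. So the strong intervals of this arm were divided between its inner part and its outer part.

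The 4 intervals of the centre among the best 10 ran from 7842111 to 7857221 (scores 2002 and 3100), from 11524833 to 11542733 (1116 and 3100), from 11919064 to 11929903 (1107 and 3100) and from 12631408 to 12642900 (1826 and 2917). Each held a peak of 7809 bp or more in replicate 1. The last was called as 1 peak of 10866 bp in replicate 1 and as 2 peaks of 4806 and 6270 bp in replicate 2, so the same stretch can count once or more in a list. Among the 184 shared intervals, 64 contained several peaks of replicate 1, of replicate 2 or of both.

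Shared intervals lay near the left end of V and near the last peak on the right. That peak was taken as the right end, so peaks there follow from the definition and the distance to the true end is unknown here. The outermost at the left ran from 4682 to 9812, and scored 366.9 in replicate 1 and 2558 in replicate 2. The outermost at the right ran from 20788189 to 20794806, and scored 908.1 and 1703. Within 100 kb of the left end there were 3 shared intervals, 3 peaks of replicate 1 and 4 of replicate 2. Within 100 kb of the last peak at the right there were 3 shared intervals, 9 peaks of replicate 1 and 8 of replicate 2. The single outermost peak at the right, from 20795685 to 20796808, was in replicate 1 alone and scored 103.0.

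In both lists, the strongest peaks without a partner stood at widely different distances from the other list. In replicate 1 these were a peak from 6876526 to 6878882 in the left arm (score 407.7, 1.40 kb from replicate 2), a broad one of 25.5 kb from 10707309 to 10732793 in the centre (518.5, 0.873 kb away) and a weak one from 20005300 to 20006508 in the right arm (193.8, 379.5 kb away). In replicate 2 they stood from 264526 to 267737 in the left arm (1575, 108.5 kb away), from 10037451 to 10040571 in the centre (1328, 9.02 kb away) and from 15534107 to 15535798 in the right arm (585.7, 2.67 kb away). The left-arm peak of replicate 2 ranked 65 of 392 on V, so it was strong within its list and far from any replicate 1 peak.

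Distances to the nearest neighbour were similar in the centre and in the arms, while single intervals and groups of 3 or more each made up a larger part in the centre. The median distance between the midpoints of nearest neighbours in a list was 3.70 kb in the centre and 4.14 kb in the arms in replicate 1, and 4.04 and 3.97 kb in replicate 2. Neighbours within 10 kb were found for 66.0% of the shared intervals of the centre and 67.9% of those of the arms, with 75% in the left arm and 59.5% in the right. When shared intervals up to 10 kb apart were joined, V had 95 sites, of which 53 lay in the centre and 42 in the arms. Single intervals made up 28 of 53 sites in the centre and 14 of 42 in the arms. By arm they were 5 of 22 sites on the left and 9 of 20 on the right, with the right arm closer to the centre. Sites of 3 or more intervals numbered 12 in the centre and 7 in the arms, and held 47.6% of the intervals of the centre and 30.9% of those of the arms. None of these differences was tested. The sites with the most intervals lay in the centre: 7 intervals from 8396686 to 8427547, and 5 each from 12511279 to 12541790, from 9253076 to 9276892 and from 13562885 to 13585337. None of these 4 held an interval at 3100, and their best scores in replicate 1 were 219.3 to 554.0. The widest shared interval of V, 33.3 kb from 6208375 to 6241668, lay in the left arm and was a single peak in replicate 1, with scores of 826.4 and 1423.

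The central share of V stood above that of I to IV in both lists, with II closest to it. In replicate 1 it was 58.5% on V and 50.03% on I to IV, 8.50 percentage points more (adjusted p = 0.0029 by Fisher's exact test, two-sided). In replicate 2 it was 57.7% on V and 46.0% on I to IV, a difference of 11.6 points (adjusted Fisher p = 0.00015). Among the shared intervals it was 56.0% on V and 48.5% on I to IV, a difference of 7.52 points that did not pass the threshold (adjusted Fisher p = 0.071). After peaks within 10 kb were joined, the difference in replicate 1 was 8.39 points and no longer passed (Fisher's exact test, unadjusted p = 0.059), and with the stronger 50% of that list it was 5.25 points (unadjusted Fisher p = 0.19).

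Set against each chromosome, V had a higher central share than III and IV in both lists and among the shared intervals. On III it was 46.2% in replicate 1, 37.7% in replicate 2 and 43.4% of the shared intervals. On IV it was 48.1%, 44.2% and 44.5%. For III and IV the adjusted p-values were from 4.64e-07 to 0.045 (Fisher's exact tests, two-sided, adjusted over 12 comparisons of V with an autosome). Against I, with 48.3%, 50% and 52.3%, only replicate 1 passed (adjusted Fisher p = 0.0068). Against II, with 57.97%, 53.1% and 54.9%, no set passed (adjusted Fisher p = 0.28 to 0.92), and the differences were 0.56, 4.56 and 1.06 points. V and II were therefore not told apart by this measure. The comparisons by chromosome were added after the shares had been seen.

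**Figure D3:**
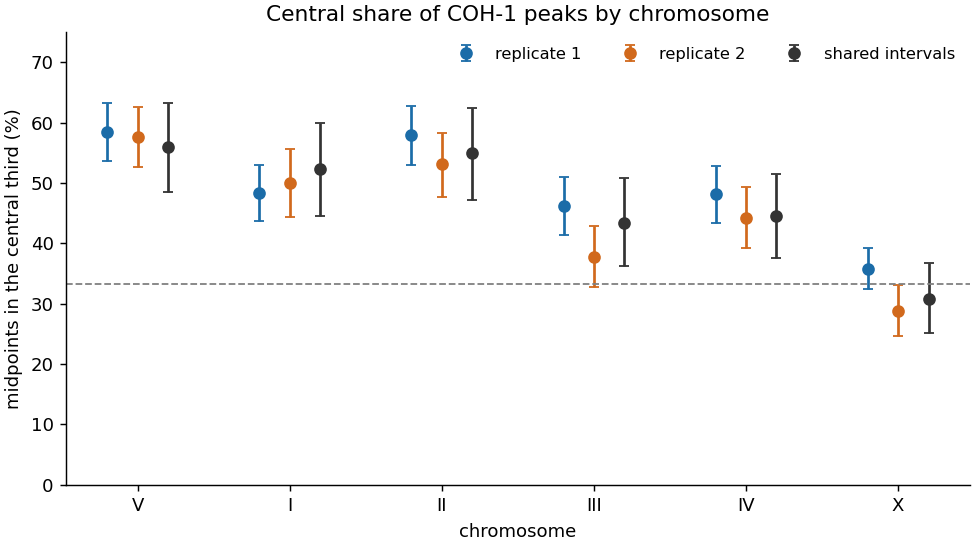
Share of midpoints in the central 33.3% of each chromosome, in %, for peaks of replicate 1, peaks of replicate 2 and shared intervals. Points are shares, bars are exact 95% binomial intervals, and the dashed line is the share under even placement. V stands at 58.5%, 57.7% and 56.0%, close to II and above III, IV and X.

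The higher central share of V went with sparser arms rather than with a denser centre. In replicate 1 the centre of V had 35.6 peaks per Mb and the centres of I to IV 42.6, while the arms had 12.6 on V and 21.3 on I to IV. In replicate 2 the centres had 32.6 on V and 32.3 on I to IV, and the arms 11.97 on V and 18.96 on I to IV. In covered length the arms of V had 37.2 kb per Mb in replicate 1 and 32.2 in replicate 2, against 52.2 and 47.2 kb per Mb in the arms of I to IV.

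Peaks of the dense centre were not detectably more or less often shared than peaks of the arms. In replicate 1, 125 of 247 peaks in the centre of V were shared, 50.6%, and 93 of 175 in the arms, 53.1% (odds ratio 0.90, 0.60 to 1.36 at 95%; adjusted two-sided p = 0.62 by Fisher's exact test). In replicate 2, 145 of 226 in the centre were shared, 64.2%, and 121 of 166 in the arms, 72.9% (odds ratio 0.67, 0.42 to 1.05; adjusted Fisher p = 0.16). By arm, 47.6% of the left and 61.4% of the right arm peaks were shared in replicate 1, and 77.5% and 68.6% in replicate 2, so neither arm was ahead in both lists.

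On I to IV, the share of replicate 2 peaks found in replicate 1 ran the other way, with 75.6% in the centre and 63.1% in the arms. The odds ratio of centre over arms was 0.67 on V and 1.81 on I to IV, a ratio of 0.37 (95% Wald interval 0.22 to 0.60; Zelen's exact test of equal odds ratios, two-sided, adjusted p = 0.00016 over both lists). This test was added after the shares had been seen. It depends on the definition of sharing: a reciprocal overlap of 50% gave a ratio of 0.73 (exact p = 0.21) and midpoints within 500 bp gave 1.02 (exact p = 1). The order on V in replicate 2 also depended on the border. With the middle 50% of the length as the centre, centre minus arms was 1.02 points (Fisher's exact test, unadjusted p = 0.90). The ratio was not computed with that border. In replicate 1 the odds ratios were 0.90 on V and 0.82 on I to IV, a ratio of 1.10 (0.72 to 1.70; adjusted exact p = 0.66). Peaks in the centre of V were narrower than those in the centres of I to IV, with medians of 1445 bp on V against 1834 bp in replicate 1 and 1514 against 1739 bp in replicate 2. Among peaks of replicate 2 below the median width of that list, the ratio was 0.39 (exact p = 0.0075). This cut did not match widths between V and I to IV, and a role of width in the contrast was not tested.

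**Figure D4:**
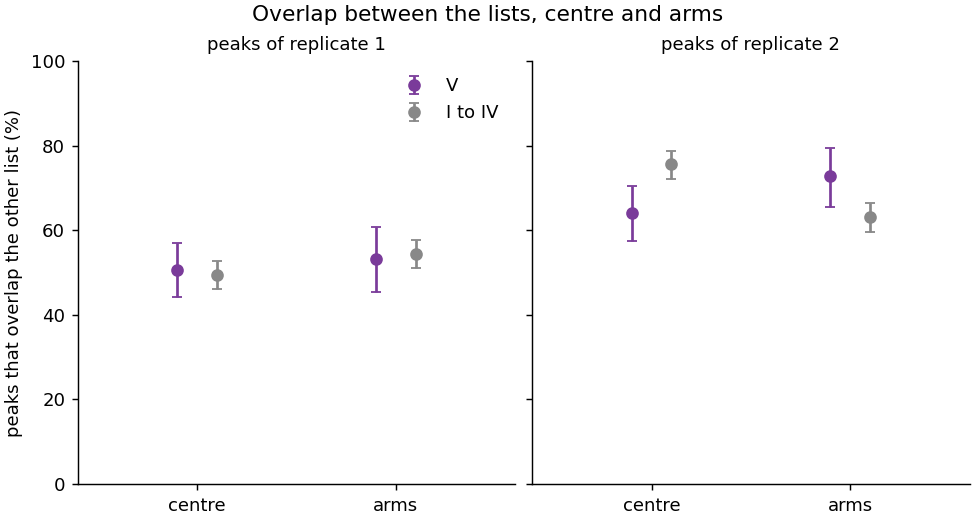
Share of peaks that overlap the other list, in %, in the centre and arms of V (purple) and of I to IV (grey), for peaks of replicate 1 (left) and of replicate 2 (right). Bars are exact 95% binomial intervals. In replicate 2 the order of centre and arms on V, 64.2% and 72.9%, is the reverse of that on I to IV, 75.6% and 63.1%.

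The arms of V did not differ in the same way in both lists. Replicate 1 had 105 peaks in the left arm and 70 in the right, so 60% of its arm peaks lay on the left (exact 95% interval 52.3% to 67.3%; exact binomial test, two-sided, adjusted p = 0.030). Replicate 2 had 80 and 86, or 48.2% on the left (40.4% to 56.1%; adjusted exact binomial p = 0.70). Of the shared intervals 44 lay in the left arm and 37 in the right, or 54.3% (42.9% to 65.4%; adjusted exact binomial p = 0.70). The covered length was 42.7 kb per Mb on the left and 31.8 on the right in replicate 1, and 33.5 and 30.9 in replicate 2. The left arm thus held more peaks in replicate 1 alone.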

How the data were processed

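The submitters' processing notes name BWA and ce10. Per the file headers, the authors' peaks are in build WS220, and the source column names MACS. No source used here gives versions, threshold, control or filters. Each of the 2 ChIP libraries has its own list, so replicates were not pooled. Scores are the authors' deposited values from the caller and were used only within a list. Lists carry no reads, so depth is unknown.

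From the lists were computed overlaps (1 bp or more), joined shared intervals, zones by midpoint, medians and counts, with Python 3.11.15, numpy 2.4.6, scipy 1.17.1, pandas 2.3.3 and matplotlib 3.10.9. Tests were exact binomial, Fisher's and Zelen's exact tests, two-sided, at 0.05, with Clopper-Pearson 95% intervals. Computations were checked on simulated lists with a known shared part.

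The regions named follow a rule: the 10 best shared intervals of V, the 5 best of each arm, the strongest unpaired peak of each zone and list, the outermost peaks, and the 3 extremes among bins, empty stretches and sites (4 where tied). Others were picked after their values were seen. Chromosome V, the zones and the tests were chosen with earlier results of these data known. Alternatives were a stronger peak threshold, other overlap rules, joined neighbours, each list alone, a wider centre, another length, and narrow peaks. Input libraries were not analysed here.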

Additional observations from a re-analysis of the deposited data

Results flagged for a closer look

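The central share of V exceeded that of I to IV by 8.50 percentage points in replicate 1 and by 11.6 points in replicate 2. The test of each difference passed the threshold, but that of the shared intervals did not (7.52 points, adjusted Fisher p = 0.071). Against II alone no set passed (adjusted Fisher p = 0.28 to 0.92). In replicate 1 the difference from I to IV no longer passed with neighbours within 10 kb joined or with the stronger 50% of the list. The contrast of centre and arms in overlap differed between V and I to IV for peaks of replicate 2, with a ratio of odds ratios of 0.37, by a test added after the values had been seen. The ratio was 0.73 under reciprocal overlap and 1.02 with midpoints within 500 bp, and neither passed the threshold.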

How the results depend on the processing

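No paired analysis was possible because no values of the inputs with the same replicate numbers were analysed here. Of 50 alternatives over 10 results, 35 kept direction and call at the 0.05 threshold. Among these were all alternatives of the central share of V (53.9% to 79.3%, the highest with the middle 50% as the centre) and of its density ratio (0.65 to 0.81). The difference of 7.52 points in central share of shared intervals between V and I to IV passed in single lists (8.50 to 11.6 points) and with the middle 50% as the centre (12.6 points, Fisher p = 0.00092). In replicate 1 it was 8.39 points with neighbours joined and 5.25 with the stronger 50%, both past no threshold. The left share of arm intervals, 54.3%, was 48.9% with the stronger 50% and 48.2% to 60% in single lists. The overlap of centre minus arms in replicate 1, -2.54 points, turned to 0.60 with the stronger 50%, 1.34 with the middle 50% as the centre and 2.93 among narrow peaks, and in replicate 2, -8.73 points, to 1.02 with the middle 50%. The ratio of odds ratios was 0.89 in replicate 1 and 0.73 in replicate 2 under reciprocal overlap, and 1.02 in replicate 2 with midpoints within 500 bp. The cause of these changes was not tested. Lists without reads leave the depth behind a missing peak unknown.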
